A study of Mus musculus with 3 samples.

Results

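Of 4673 macrophage-gated cells sequenced 11 days after myocardial infarction, 554 held at least 3 unique molecular identifiers (UMIs, each a tag for 1 captured RNA molecule) of Gpnmb and no UMI of Arg1. These 554 Gpnmb cells made up 11.9% of the day 11 library (exact Clopper-Pearson 95% interval 10.9% to 12.8%, counting error only), out of 8207 cells that passed the same filter in 3 libraries. To pass, a cell needed 500 or more detected genes and no more than 10% mitochondrial UMIs. Gpnmb and Arg1 chose the cells, so their values are given as a description. The cells were set against the 3867 other day 11 cells in which the macrophage complement genes C1qa, C1qb and C1qc together reached 40 per 10000 UMIs. These comparison cells include cells with Arg1 UMIs. Of the Gpnmb cells, 539 also met that C1q level.

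The study compared cardiac macrophages after infarction with those of uninjured hearts by droplet-based 3′ RNA sequencing (10x Chromium, v2), with 1 library per group. The day 11 library (MF-MI) and the first steady-state library (MF_SS) came from C57BL/6 mice of genotype Cx3cr1CreER-YFP/+:R26Td/+. That genotype joins a tamoxifen-inducible Cre and YFP, driven from the Cx3cr1 locus, with a Cre-dependent tdTomato at Rosa26. The second steady-state library (MF-DC) came from wild-type C57BL/6 mice and also held dendritic cells (DCs), which its gate took as CD64-negative, CD11c-positive and MHC class II-positive. All mice were 8 to 12 weeks old. All hearts were digested with collagenase, DNase and hyaluronidase in the presence of flavopiridol, an inhibitor of transcription, and the sort took live cells with CD45, CD64 and CD11b on their surface as macrophages. The number of animals behind each library, the way the infarct was made and any tamoxifen treatment are not stated in the labels, and the effect of infarction cannot be told apart from a difference between single libraries. With 1 library per group no test across animals was possible, and cells of 1 library are not replicates. Values are therefore UMIs summed over cells and scaled as CPM, to a common total of 1000000 UMIs, with exact 95% intervals of their ratios that cover counting error only.

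GPNMB is a transmembrane glycoprotein of lysosomes and of the cell surface, and its gene is a target of the MiT/TFE family of transcription factors, which switch on lysosomal genes. Macrophages that take up much lipid or many dead cells, in fat tissue, atherosclerotic plaque, injured liver or demyelinated brain, are known to express Gpnmb with Trem2, Fabp5, Ctsd, Lgals3 and Spp1. Such cells are called lipid-associated macrophages. TREM2 is the lipid-sensing receptor on which much of that expression depends in other tissues. In the infarcted heart, macrophages clear dead cardiomyocytes and matrix. The libraries hold RNA only and give no measure of lipid in the cells.

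The Gpnmb gene lies on chromosome 6, bases 49036546 to 49070929 of mm10, on the plus strand. Within the 554 cells Gpnmb ranged from 3 to 146 UMIs, with a median of 7 and quartiles of 4 and 12. As a share of the cell's own RNA the median was 7.31 per 10000 UMIs, with quartiles of 4.49 and 12.3 and a highest value of 70.8. The threshold cuts a range and not 2 separate sets of cells. Among day 11 cells without Arg1, 2894 had no Gpnmb UMI, 480 had 1, 153 had 2, 87 had 3, 62 had 4, 217 had 5 to 9, 121 had 10 to 19 and 67 had 20 or more. Just outside the threshold, 151 comparison cells with 2 Gpnmb UMIs had Ctsd at 3277 CPM, Fabp5 at 408 CPM and Cd74 at 17260 CPM. Just inside it, 85 cells with 3 Gpnmb UMIs had Ctsd at 4060 CPM, Fabp5 at 482 CPM and Cd74 at 11899 CPM. Lgals3 did not follow that order, at 2001 CPM with 2 Gpnmb UMIs and 1720 CPM with 3.

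Depth differed between the sets. The Gpnmb cells had a median of 10120.5 UMIs and 2623.5 genes, against 7931 UMIs and 2322 genes in the comparison cells, while mitochondrial UMIs took 2.07% and 2.03%. A count threshold takes deep cells more readily, so each ratio was also formed within 6 bins of UMIs per cell and averaged with the Gpnmb cells as weights, called below the ratio at equal depth. Shares said to be of thinned cells or at 4000 UMIs were read with each cell thinned to 4000 UMIs. That left 533 Gpnmb cells and 3547 comparison cells and dropped 21 and 320 shallower ones. Other shares of cells with a UMI were read before thinning. After thinning, 296 of the 533 still showed at least 3 Gpnmb UMIs and 43 showed none. The day 11 library shared 8 barcodes with MF_SS, 2 of them of Gpnmb cells, and 11 with MF-DC, 0 of them of Gpnmb cells.

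Defining macrophage genes were present. Csf1r, the receptor for the macrophage growth factor, was found in 98.0% of the Gpnmb cells and Adgre1, which encodes F4/80, in 97.1%. Adgre1 stood at 537 CPM against 534 CPM in the comparison cells, while Csf1r was lower, at 694 against 933 CPM. Fcgr1, which encodes the CD64 of the sort gate, stood at 184 against 260 CPM. The 5 markers proposed with Gpnmb, namely Syngr1, Fabp5, Ctsd, Lgals3 and Clec4d, had been picked on these cells and are not independent evidence for the name. All 5 were detected together in 379 Gpnmb cells (68.4%) and in 439 comparison cells (11.4%). At 4000 UMIs the shares were 31.7% and 3.27%.

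Markers of other cell types were read next. Shares of cells for these lists are before thinning, and the Gpnmb cells were deeper. Of 8 DC genes, Xcr1 and Itgae were at 0 and the list summed to 27.9 CPM, against 34.5 CPM in the comparison cells. Of 5 mast cell genes 4 were at 0, and T and NK cell genes gave UMIs in 0.903% of the cells, summing to 5.99 against 3.01 CPM. Neutrophil genes summed to 49.6 against 43.6 CPM and gave UMIs in 39.4% of Gpnmb cells and 25.9% of comparison cells. Endothelial genes summed to 47.1 against 40.7 CPM, in 26.9% and 22.3% of cells. The part of these cell types in the results was not tested. The 6 fibroblast genes summed to 75.5 against 44.6 CPM, and 1 cell held 198 of the 247 UMIs of Dcn, which encodes the matrix proteoglycan decorin. Dcn was found in 3.75% of thinned Gpnmb cells and in 4.06% of thinned comparison cells. The 6 cardiomyocyte genes summed to 16.4 against 33.6 CPM. The automatic threshold of a doublet caller marked 0 of 4673 cells and so did not work, and among the 175 cells with the highest doublet scores were 33 Gpnmb cells (5.96% of them) and 142 comparison cells (3.67%). As cells of another kind, 59 low-C1q cells with DC transcripts were read for the same genes. Of the 5 markers, Lgals3 was found in 94.4% of their thinned cells, Ctsd in 61.1%, Fabp5 in 20.4%, Syngr1 in 1.85% and Clec4d in 1.85%. In these intact cells free RNA and their own expression cannot be told apart.

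The lysosomal genes include many that carry a short palindromic element bound by the MiT/TFE factors. For that reason promoters of 3 genes to which the results return are shown first. They come from RefSeq on GRCm38.p6, the assembly of mm10, run 5′ to 3′ on the gene's strand, and span 250 bases before to 50 bases after the annotated start. Capitals mark matches on either strand to TCACGTG (E-box type), TCATGTG (M-box type) or TGANTCA (AP-1 type). A TCACGTG match on both strands overlaps itself in TCACGTGA. Gpnmb lies at chr6:49036268-49036567 (plus strand), Ctsd at chr7:142387778-142388077 (minus strand) and Gla, which encodes alpha-galactosidase A, at chrX:134600956-134601255 (minus strand).
Gpnmb: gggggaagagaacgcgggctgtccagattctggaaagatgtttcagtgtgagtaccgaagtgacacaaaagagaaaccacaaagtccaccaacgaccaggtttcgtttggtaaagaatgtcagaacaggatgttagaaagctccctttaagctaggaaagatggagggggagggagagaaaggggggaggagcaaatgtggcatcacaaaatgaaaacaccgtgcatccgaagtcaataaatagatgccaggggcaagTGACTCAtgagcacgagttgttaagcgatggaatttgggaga
Ctsd: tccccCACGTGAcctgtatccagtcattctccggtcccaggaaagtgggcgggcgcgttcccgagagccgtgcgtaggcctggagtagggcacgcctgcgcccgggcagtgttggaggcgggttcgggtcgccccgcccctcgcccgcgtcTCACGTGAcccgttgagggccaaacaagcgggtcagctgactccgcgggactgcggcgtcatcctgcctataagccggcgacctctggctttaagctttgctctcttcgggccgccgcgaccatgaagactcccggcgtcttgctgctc
Gla: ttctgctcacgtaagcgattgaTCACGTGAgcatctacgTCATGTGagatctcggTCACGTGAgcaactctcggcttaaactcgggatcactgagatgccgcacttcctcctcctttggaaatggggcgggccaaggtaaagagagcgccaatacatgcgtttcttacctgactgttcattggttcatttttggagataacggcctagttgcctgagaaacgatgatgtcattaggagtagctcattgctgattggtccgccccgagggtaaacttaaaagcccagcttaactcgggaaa
The Gpnmb window held a TGANTCA match and neither of the other motifs, whereas the Ctsd and Gla windows held TCACGTG, and Gla also TCATGTG. Of all 32851 promoter windows in the table, 3.77% held TCACGTG, 3.77% held TCATGTG and 7.81% held TGANTCA. The first motif was in 7 of 28 windows (25.0%) of 23 matched lysosomal hydrolase genes and in 5 of 19 windows (26.3%) of 17 matched lysosomal membrane and proton pump genes. It was in 1 of 16 windows of 13 matched genes among the 15 genes of highest ratio described next. Among 14 matched genes of lipid-associated macrophages it was in 2 of 17 windows, and TCATGTG was in 0. The windows of Syngr1, Lgals3, Clec4d and Anpep held none of the 3 motifs. These matches are letters in a window and show no binding.

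Across 5106 genes with at least 20 CPM in either set, 65 (1.27%) were at least 2-fold higher in the Gpnmb cells and 103 (2.02%) at least 2-fold lower. The median log2 ratio over all 5106 was -0.08, and 1844 of them (36.1%) had a ratio above 1. The 15 genes with the highest ratios among those above 50 CPM were, in order, Fabp5, Anpep, Ahnak2, Syngr1, Ctsd, Tnfaip2, Mmp12, Lgals3, Adam8, Clec4d, Mgst1, Gpx3, Pld3, Gpr137b and Gstm1. Of these 15, 14 were also at least 2-fold above the steady-state macrophages, the exception being Gstm1 at 151 against 82.3 CPM. The 15 were picked on high ratios in the same Gpnmb cells, so that count is not independent evidence. Over all genes tested the median log2 ratio to steady-state macrophages was -0.11, and the share at 2-fold was not counted.

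Fabp5, which encodes a cytosolic fatty acid-binding protein (chromosome 3, bases 10012548 to 10016607), stood at 1092 CPM in the Gpnmb cells, 226 CPM in the comparison cells and 42.2 CPM in steady-state macrophages. Its ratio to the comparison cells was 4.82 (4.67 to 4.98). In the middle range of cells it lay between 3.08 and 14.6 per 10000 UMIs, against 0 to 1.71, so the inner ranges of the sets did not overlap. After thinning, 84.8% of Gpnmb cells and 29.6% of comparison cells had a Fabp5 UMI, and 95.5% and 45.6% did before thinning.

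Ctsd, which encodes the lysosomal aspartic protease cathepsin D (chromosome 7, bases 142375911 to 142388038), stood at 5587 against 1571 CPM, with 566 CPM at steady state. The ratio was 3.56 (3.51 to 3.60) and 3.80 at equal depth. Every Gpnmb cell had Ctsd UMIs, and its quartiles were 36.0 and 79.5 per 10000 UMIs against 3.99 and 19.7. The gap between the quartile ranges of Ctsd was thus wide.

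Syngr1, which encodes the vesicle membrane protein synaptogyrin-1 (chromosome 15, bases 80091334 to 80119501), stood at 269 against 62.7 CPM, a ratio of 4.30 (4.04 to 4.58). It was found in 62.1% of thinned Gpnmb cells, 17.8% of thinned comparison cells and at 8.70 CPM in steady-state macrophages. Lgals3, which encodes the glycan-binding galectin-3 (chromosome 14, bases 47367751 to 47386160), stood at 3255 against 1126 CPM and 557 CPM at steady state. Clec4d, a C-type lectin receptor gene (chromosome 6, bases 123262111 to 123275265), stood at 248 against 87.6 CPM and 11.5 CPM at steady state. These 3 genes share a pattern in which the steady state is lowest and the Gpnmb cells are highest.

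Anpep, which encodes the surface aminopeptidase N (CD13), was in no marker set and stood at 98.0 against 20.8 CPM, a ratio of 4.72 (4.24 to 5.25) and 5.09 at equal depth. It was detected in 30.0% of thinned Gpnmb cells and 6.77% of thinned comparison cells. Ahnak2, which encodes a very large scaffold protein, stood at 58.5 against 12.8 CPM and at 1.48 CPM in steady-state macrophages. Anpep and Ahnak2 UMIs were spread widely, since the 10 richest cells held 9.72% and 13.4% of them. Mmp12, which encodes macrophage elastase, behaved otherwise. It stood at 204 against 67.2 CPM, but only 27.3% of the Gpnmb cells had a UMI and 10 cells held 44.8% of all its UMIs. The Mmp12 ratio was 3.03 overall and 2.52 at equal depth.

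**Figure D1:**
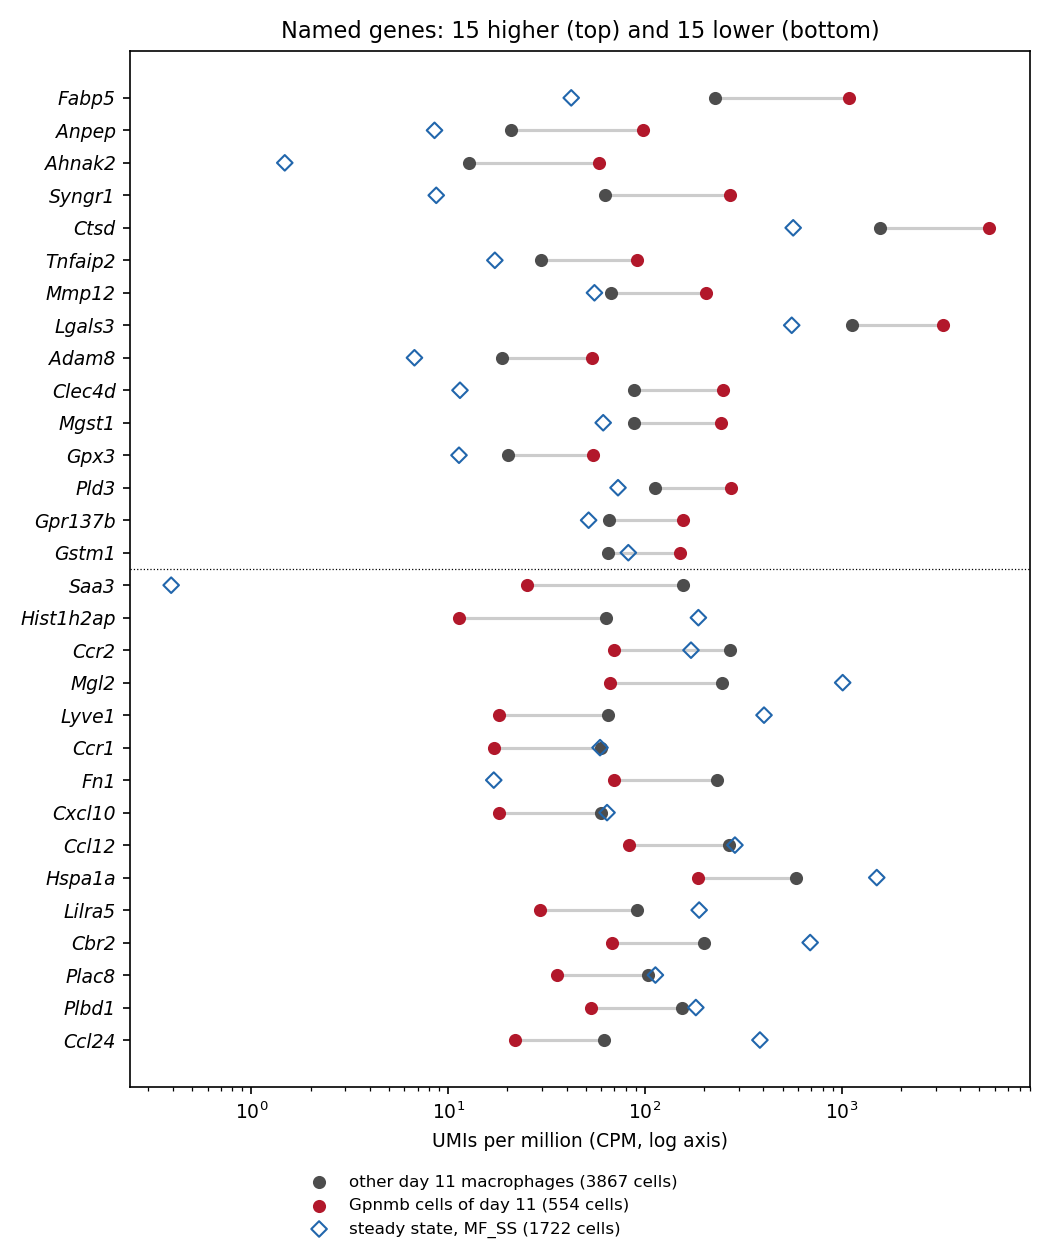
Level of each named gene (CPM, log axis) in the 554 Gpnmb cells (red), the 3867 other day 11 macrophages (grey) and 1722 steady-state macrophages (blue diamonds, cells of MF_SS at the same C1q level). Red lies right of grey for the upper 15 genes and left of it for the lower 15. Fabp5 is the farthest apart of the upper ones, at 1092 against 226 CPM.

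Among 20 known genes of lipid-associated macrophages from other tissues, other than Gpnmb, 7 were at least 2-fold higher in the Gpnmb cells, 0 were 2-fold lower, and the median log2 ratio was 0.83. Of those 7, Fabp5, Syngr1, Ctsd, Lgals3 and Clec4d are the markers picked on these cells, so that count is not independent evidence. Among the other 15 genes of the list 2 were at least 2-fold higher, Trem2 and Cd63, against 1.27% of all genes tested. Of these 15, 14 had a ratio above 1, against 36.1% of all genes tested, and the median log2 ratio was 0.76. The list was chosen with earlier results of these data known, so these counts are not independent evidence either. Trem2 stood at 1590 against 764 CPM, with 273 CPM at steady state, and its ratio was 2.08 (2.04 to 2.13). Its quartiles were 11.0 and 21.6 per 10000 UMIs against 3.12 and 10.8. Cd63, which encodes a tetraspanin of late endosomes, stood at 1949 against 964 CPM. Apoe, the lipid carrier apolipoprotein E, stood at 66000 against 37192 CPM and 20863 CPM at steady state. Cd9, another tetraspanin gene, stood at 854 against 505 CPM. Several genes of the same list differed little. Lpl, which encodes lipoprotein lipase, stood at 208 against 185 CPM, the fatty acid receptor gene Cd36 at 101 against 93.1 CPM, and the integrin gene Itgax at 25.6 against 26.1 CPM. At steady state Cd36 was higher, at 338 CPM, and so was Lpl, at 301 CPM.

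Genes of lipid handling were mostly higher, but mostly by less than 2-fold. Of 15 measured genes for lipid uptake, storage and efflux, 12 had a ratio above 1, against 36.1% of all genes tested. Of the 15, 2 were at least 2-fold higher, Fabp5 and Nceh1, and none was 2-fold lower. The median log2 ratio was 0.25. Fabp5 is a marker picked on these cells. Of the other 14 genes 1 was at least 2-fold higher, against 1.27% of all genes tested. Nceh1, which encodes a cholesteryl ester hydrolase, stood at 106 against 52.4 CPM. Plin2, which encodes a lipid droplet coat protein, stood at 523 against 336 CPM, and Soat1, the cholesterol-esterifying enzyme, at 83.1 against 54.5 CPM. The efflux transporter genes Abca1 and Abcg1 stood at 96.0 against 80.5 and 41.8 against 31.2 CPM. The scavenger receptor gene Msr1 was lower, at 66.2 against 84.1 CPM. Of 18 sterol synthesis genes only 5 were measured above 20 CPM, and none of those 5 differed 2-fold.

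Lysosomal genes were higher in number but mostly by less than 2-fold. Of 29 measured hydrolases and activators, 27 had a ratio above 1, against 36.1% of all genes tested. Of the 29, 2 were at least 2-fold higher and none was 2-fold lower, with a median log2 ratio of 0.31. The 2 were Ctsd and Gla, at 40.7 against 13.1 CPM for Gla, a ratio of 3.12 (2.67 to 3.63). Ctsd is a marker picked on these cells. Of the other 28 genes 1 was at least 2-fold higher, against 1.27% of all genes tested. Cathepsin B (Ctsb) stood at 6551 against 3330 CPM and cathepsin L (Ctsl) at 675 against 363 CPM. Lipa, the lysosomal acid lipase gene, stood at 361 against 206 CPM, and cathepsin S (Ctss) at 6071 against 3766 CPM. Ctsc, which encodes cathepsin C, went against the direction of the list, at 956 against 1403 CPM.

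Of 21 lysosomal membrane and proton pump genes, 19 had a ratio above 1, against 36.1% of all genes tested. Of the 21, 2 were at least 2-fold higher, Cd63 and Atp6v0d2, against 1.27% of all genes tested, and the median log2 ratio was 0.29. Atp6v0d2 encodes a pump subunit known from osteoclasts and some macrophages. It stood at 45.0 against 7.65 CPM, a ratio of 5.88 (4.98 to 6.96). It was found in 11.8% of thinned Gpnmb cells, 2.14% of thinned comparison cells and none of 54 thinned low-C1q cells (upper limit 6.60%). Its widely expressed paralog Atp6v0d1 stood at 158 against 141 CPM. The pump genes Atp6v1a and Atp6v1c1 stood at 174 against 97.9 and 114 against 73.4 CPM.

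Other osteoclast-type genes were mixed. Acp5, which encodes the tartrate-resistant acid phosphatase, stood at 119 against 64.2 CPM and 13.6 CPM at steady state. Ctsk, the collagen-cutting cathepsin K, gave 121 UMIs (18.6 CPM) in the Gpnmb cells against 1.16 CPM, but 24 cells held all of them and 1 cell held 51. The genes for the receptor RANK (Tnfrsf11a) and the factor NFATc1 (Nfatc1) stood at 29.0 against 33.5 and 24.4 against 29.5 CPM. The fusion gene Dcstamp gave 4 UMIs, in 0.542% of the 554 Gpnmb cells and 0.776% of the comparison cells. Oscar and Calcr gave none in either set.

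The transcripts of the MiT/TFE factors themselves differed little. Mitf stood at 31.6 against 24.6 CPM, a ratio of 1.29 (1.10 to 1.5). Tfeb stood at 28.9 against 29.3 CPM and Tfe3 at 27.0 against 33.5 CPM. Against 1.27% of all genes tested, 2 of 18 measured regulators were at least 2-fold higher. They were Fnip2, a partner of the folliculin complex that holds these factors back, at 31.6 against 15.6 CPM, and Bhlhe41, a transcriptional repressor gene of tissue macrophages, at 31.8 against 15.8 CPM. Klf2, which encodes a zinc-finger factor, was lower, at 85.7 against 239 CPM.

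**Figure D2:**
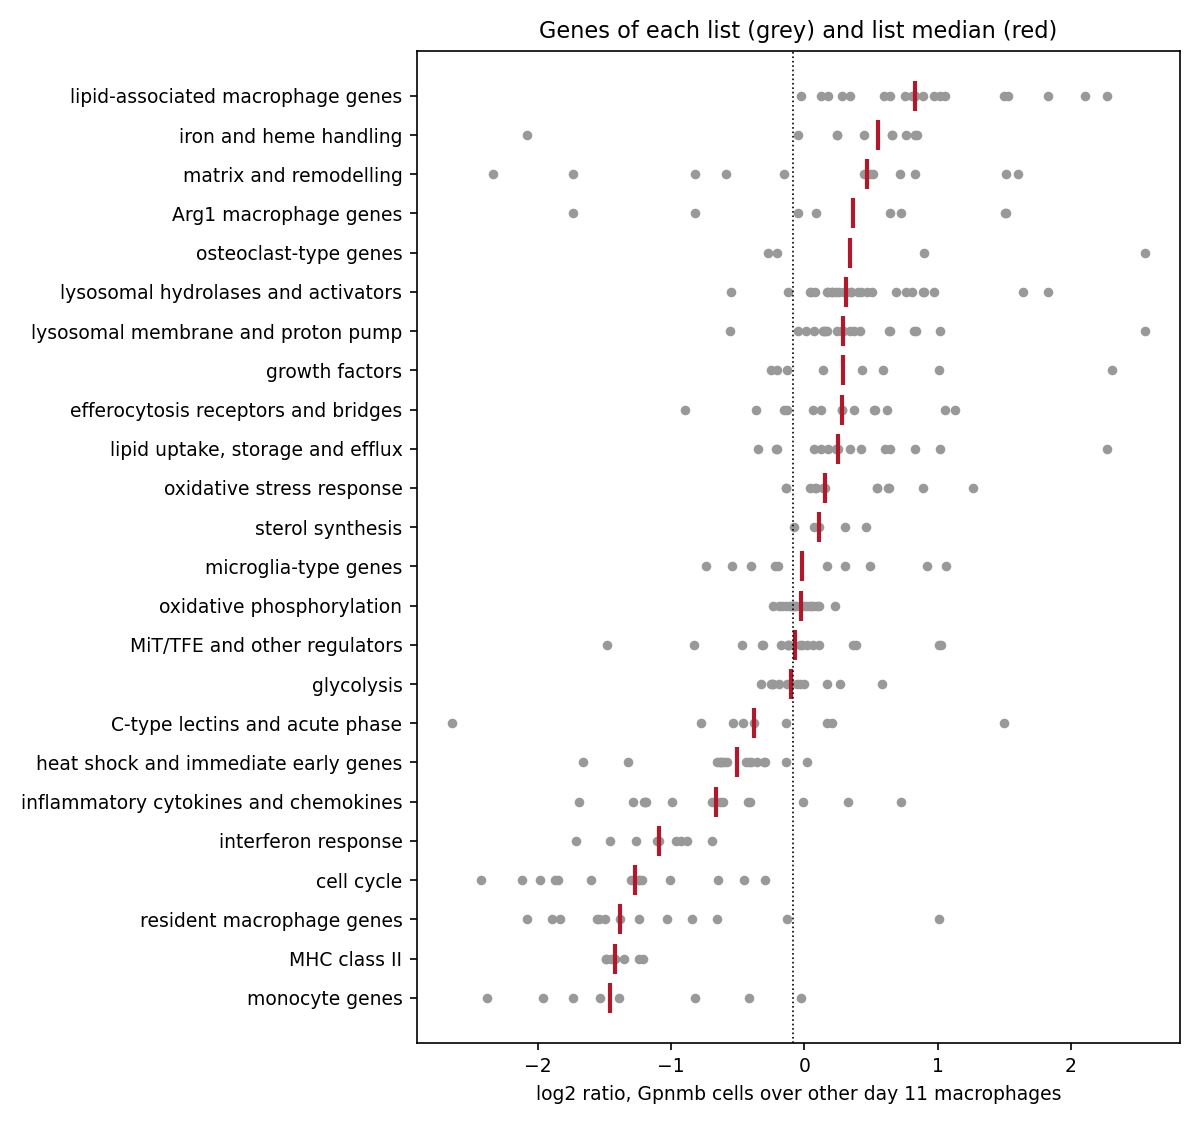
Log2 ratio of Gpnmb cells over other day 11 macrophages for every measured gene (grey) of 24 gene lists, with the list median (red bar) and the median of all 5106 genes (dotted line, -0.08). The lipid-associated list has a median of 0.83, or 0.76 without the 5 markers picked on these cells, and the MHC class II and monocyte lists have medians of -1.42 and -1.46.

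Genes of antigen presentation on MHC class II were lower throughout. All 7 measured genes were at least 2-fold lower, against 2.02% of all genes tested, with a median log2 ratio of -1.42. H2-Aa stood at 3142 against 8408 CPM, 2.68-fold lower (2.64 to 2.71), and the invariant chain gene Cd74 at 9719 against 26544 CPM. Ciita, the master regulator of these genes, stood at 11.4 against 32.0 CPM. H2-Aa in MF_SS macrophages stood at 8364 CPM, close to the comparison cells. At equal depth the median log2 ratio of the list was -1.79, and it was -2.23 when every cell was thinned before the rule was applied.

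The sum of MHC class II UMIs per cell was unevenly spread among the Gpnmb cells. Its median was 31.5 per 10000 UMIs, with quartiles of 22.4 and 190, against a median of 466 and quartiles of 82.9 and 941 in the comparison cells. Of the 554 Gpnmb cells, 56 (10.1%) reached the median of the comparison cells. The Gpnmb cells thus held a large MHC class II-low portion and a smaller portion at the level of other macrophages. Among 533 thinned Gpnmb cells, Ctsd and Cd74 had a Spearman correlation of -0.49 and Apoe and Cd74 one of -0.38. Both are descriptions across cells of 1 library that share depth.

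Resident macrophage genes were lower as well. Of 13 measured, 9 were at least 2-fold lower and 1 was at least 2-fold higher, against 2.02% and 1.27% of all genes tested. The list had a median log2 ratio of -1.38, and of -2.24 with every cell thinned first. Lyve1, a hyaluronan receptor gene of perivascular macrophages, stood at 18.1 CPM against 64.6 CPM and 403 CPM at steady state. It was 3.57-fold lower than in the comparison cells (2.96 to 4.33). Folr2, the folate receptor beta gene, stood at 120 CPM against 313 and 1126 CPM, and the haemoglobin scavenger receptor gene Cd163 at 10.4 CPM against 44.2 and 192 CPM. Lyve1 was found in 4.32% of thinned Gpnmb cells and 10.3% of thinned comparison cells. In thinned low-C1q cells it was found in 3.70% (2 of 54, 0.452% to 12.7%), an interval that holds both shares. The lectin gene Mgl2 stood at 66.3 CPM against 246 and 1010 CPM. Igf1, which encodes an insulin-like growth factor and is often counted with resident genes, was the exception, at 504 CPM against 250 and 246 CPM. It was found in 77.3% of thinned Gpnmb cells and 50.9% of thinned comparison cells.

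Genes of recently recruited monocytes were lower than in the comparison cells. Of 8 monocyte genes measured, 5 were at least 2-fold lower, against 2.02% of all genes tested, and 0 were 2-fold higher. The median log2 ratio of the monocyte list was -1.46. That median was -0.82 when cells with Arg1 UMIs were let into the Gpnmb set, and -0.27 against MF_SS macrophages. Ccr2, the chemokine receptor that brings monocytes into tissue, stood at 69.4 against 270 CPM, 3.89-fold lower (3.54 to 4.28). It was found in 14.6% of thinned Gpnmb cells, 42.4% of thinned comparison cells and 70.4% of thinned low-C1q cells, whose DCs are known to express it. Ly6c2, which marks classical monocytes, gave 27 UMIs (4.15 CPM) against 21.7 CPM. S100a6, a calcium-binding protein gene, was an exception, at 707 against 721 CPM. The Gpnmb cells were therefore low in both the resident and the monocyte list, with both lists read against a mixed set of other day 11 macrophages.

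Inflammatory, interferon and cell cycle genes were lower. Over all genes tested, 2.02% were at least 2-fold lower and 1.27% at least 2-fold higher. Of 14 cytokine and chemokine genes 5 were at least 2-fold lower and none was 2-fold higher. Il1b, which encodes interleukin 1 beta, stood at 94.1 against 216 CPM and Ccl12, a monocyte-attracting chemokine gene, at 82.8 against 267 CPM. Cxcl16, whose product also binds oxidised lipoprotein, stood at 763 against 609 CPM. Of 9 interferon response genes 5 were at least 2-fold lower, among them Cxcl10 at 18.1 against 59.6 CPM. Of 14 cell cycle genes 11 were at least 2-fold lower. Mki67, a gene of dividing cells, stood at 7.22 against 26.4 CPM and 40.1 CPM at steady state. At 4000 UMIs, 10.9% of Gpnmb cells (8.37% to 13.8%) had UMIs of at least 3 cell cycle genes, against 19.8% of comparison cells (18.5% to 21.1%). Heat shock and immediate early genes, which move with tissue dissociation, had a median log2 ratio of -0.51, and Hspa1a stood at 186 against 587 CPM and 1505 CPM at steady state. The part of dissociation in these differences was not tested.

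The ferritin genes Ftl1 and Fth1 stood at 26009 against 14608 and 18347 against 10828 CPM. Of 10 iron and heme genes none was 2-fold higher and 1, Cd163, was 2-fold lower, with a median log2 ratio of 0.55. Of 13 oxidative stress genes, Srxn1, which encodes sulfiredoxin, was 2-fold higher, at 25.8 against 10.7 CPM. In that list 0 were 2-fold lower, and the median log2 ratio was 0.16. Over all genes tested, 1.27% were 2-fold higher and 2.02% 2-fold lower. The peroxiredoxin gene Prdx1 stood at 1842 against 995 CPM. Energy metabolism genes differed little, as none of 13 glycolysis and 19 oxidative phosphorylation genes differed 2-fold, and their median log2 ratios were -0.10 and -0.03.

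Of 14 genes for dead-cell uptake, 2 were at least 2-fold higher, Trem2 and Mfge8, against 1.27% of all genes tested. Mfge8 encodes a bridge from phosphatidylserine to integrins and stood at 50.4 against 23.0 CPM. The receptor gene Mertk stood at 52.1 against 33.8 CPM, and its relative Axl was lower, at 84.0 against 156 CPM. Among growth factor genes, Gdf15, a stress-induced cytokine gene, stood at 35.9 against 7.26 CPM, but 1 cell held 40.2% of its UMIs and it was found in 5.63% of thinned Gpnmb cells against 2.17%. In the matrix list Spp1, the gene for osteopontin, stood at 1392 CPM against 784 CPM and 67.1 CPM at steady state, and its richest cell held 8.25% of the UMIs.

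The level of Gpnmb itself was then used to order the cells. Day 11 cells with the C1q level and no Arg1 UMI were thinned to 4000 UMIs and grouped by the Gpnmb UMIs left, as 2767 cells with 0, 357 with 1, 135 with 2, 136 with 3 to 4, 119 with 5 to 9 and 32 with 10 or more. Ctsd stood at 1269, 2961, 5269, 6267, 7385 and 8820 CPM over these groups. Fabp5 stood at 125, 375, 789, 921, 1464 and 2859 CPM. Both were higher at each step. Gpnmb chose the cells, and Ctsd and Fabp5 are markers picked on these cells, so their rise is a description and not independent evidence. Cd74 went the other way, at 31394, 20072, 10648, 5809, 5267 and 3070 CPM. Ccr2 stood at 290, 167, 72.2, 40.4, 31.5 and 46.9 CPM, the last value from 6 UMIs. Trem2 stood at 709 CPM with no Gpnmb UMI, 1966 CPM with 5 to 9 and 1734 CPM with 10 or more, so its highest value was not in the last group. Csf1r was lower at each step, from 981 to 461 CPM. Adgre1 stood at 589, 606, 596, 656, 519 and 367 CPM, and was lowest in the last group, which holds 32 cells. The steps began below the threshold of 3 UMIs, and cells with a few Gpnmb UMIs lost to thinning fell into the lower groups.

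**Figure D3:**
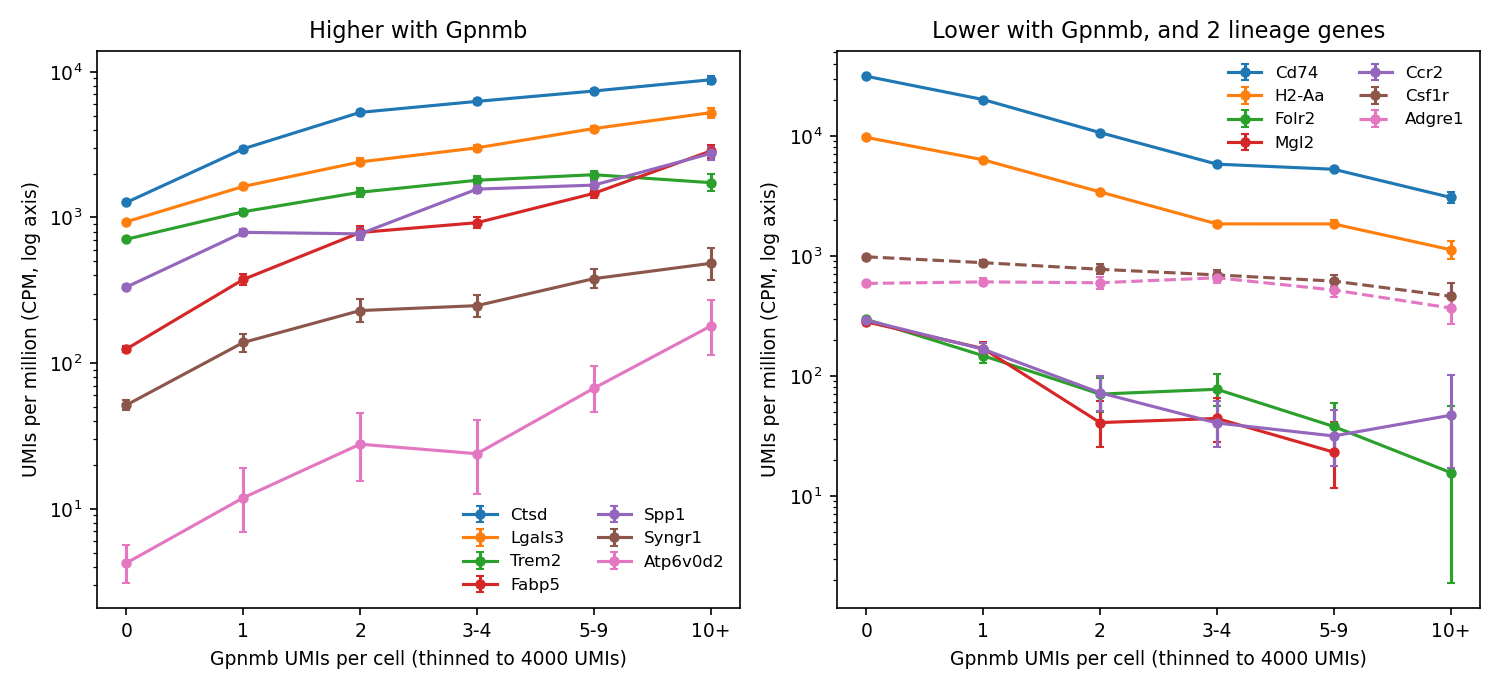
Levels (CPM, log axis, exact 95% counting intervals) by Gpnmb UMIs per cell after thinning to 4000 UMIs, in day 11 cells with the C1q level and no Arg1 UMI. Ctsd goes from 1269 to 8820 CPM and Cd74 from 31394 to 3070 CPM, while Csf1r (981 to 461 CPM) and Adgre1 (589 to 367 CPM), drawn dashed, differ less. Mgl2 is not drawn at 10 or more, where it had no UMI. Ctsd, Lgals3, Fabp5 and Syngr1 are markers picked on these cells.

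Not all higher genes went together within the Gpnmb cells. Over the 533 thinned cells Gpnmb had a Spearman correlation of 0.42 with Ctsd, 0.37 with Fabp5 and 0.34 with Lgals3, but 0.05 with Igf1 and 0.07 with Mmp12. Mmp12 went with Lgals3 (0.38) and against Apoe (-0.27), while Apoe went with Ms4a7 (0.44), a gene of tissue macrophages. These correlations describe cells of 1 library at 1 depth, and Ctsd, Fabp5 and Lgals3 are markers picked on these cells.

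Requiring no Arg1 UMI kept 89 day 11 cells with at least 3 Gpnmb UMIs out of the Gpnmb cells. They held UMIs of Arg1, the arginase-1 gene of wound-type macrophages. Those at the C1q level were among the comparison cells, as were other cells with Arg1 UMIs. These 89 cells were deeper, at a median of 17011 UMIs, and resembled the Gpnmb cells in part. They had Fabp5 at 1475 CPM, Ctsd at 4421 CPM, Trem2 at 1347 CPM and Cd74 at 8877 CPM. Of the 15 named higher genes, 12 were also at least 2-fold above the comparison cells in them. Of the 15 named lower genes 8 were 2-fold below. The same Gpnmb threshold chose both sets, and the comparison cells include part of the 89. These counts are therefore not independent evidence of likeness. Other genes set the 89 cells apart. Saa3, an acute-phase serum amyloid gene, stood at 630 CPM against 25.0 CPM in the Gpnmb cells, 25.2-fold higher (21.3 to 29.9). Fn1, the fibronectin gene, was 7.38-fold higher (6.57 to 8.30) and Spp1 3.20-fold higher (3.10 to 3.30). In 156 cells with at least 3 Arg1 UMIs and under 3 of Gpnmb, Saa3 stood at 1188 CPM, Fn1 at 1490 CPM and Ctsd at 1891 CPM.

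Saa3 had the lowest ratio of all named genes, at 25.0 against 157 CPM, or 6.27-fold lower (5.36 to 7.37). That value rests on the Arg1 condition. The comparison cells include the Arg1 cells described above, in which Saa3 and Fn1 were high. With the 89 cells added to the Gpnmb cells the log2 ratio of Saa3 became 0.09 and that of Fn1 -0.49. Within the Gpnmb cells, 1 cell held 101 of the 163 Saa3 UMIs. The other named lower genes were Hist1h2ap, Ccr2, Mgl2, Lyve1, Ccr1, Cxcl10, Ccl12, Hspa1a, Lilra5, Cbr2, Plac8, Plbd1 and Ccl24, with ratios from 5.57-fold to 2.83-fold lower. Of the 15 named lower genes, 13 were also at least 2-fold below the MF_SS macrophages. Saa3 and Fn1 were the exceptions, at 0.392 and 17.1 CPM there. Against the MF-DC cells at the C1q level, 10 of the 15 were at least 2-fold lower. The 15 were picked on low ratios in the same Gpnmb cells, so these counts are not independent evidence. The share of all genes at 2-fold was not counted for either library.

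**Figure D4:**
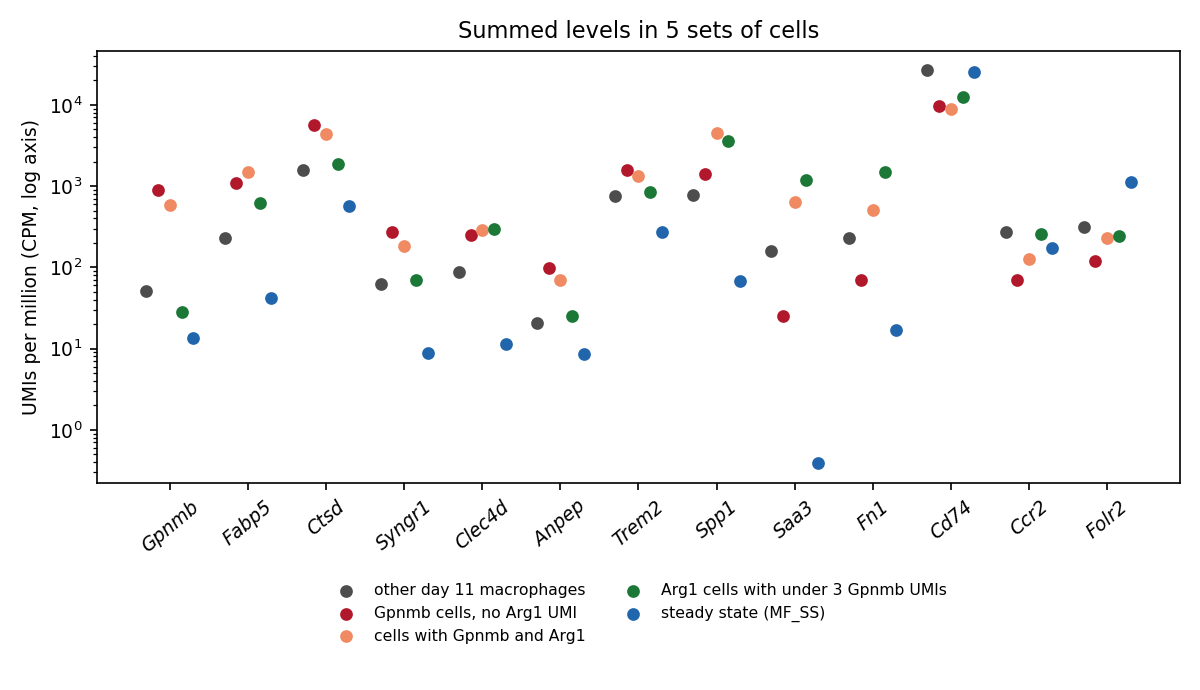
Summed levels (CPM, log axis) of 13 genes in 5 sets of cells. Gpnmb cells with no Arg1 UMI (red) and cells with both transcripts (orange) lie close for Ctsd, Trem2 and Cd74 and far apart for Saa3, at 25.0 and 630 CPM.

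The same rule found few cells in the steady-state libraries. In MF_SS, 13 of 1767 cells (0.736%, 0.392% to 1.25%) qualified, and in MF-DC 1 of 1767 (0.0566%, 0.00143% to 0.315%). With every cell thinned to 4000 UMIs first, the shares were 7.25% at day 11 (312 of 4302 cells), 0.234% in MF_SS (4 of 1713) and 0 of 1422 in MF-DC, which allows up to 0.259%. Gpnmb over all cells at the C1q level stood at 176 CPM at day 11, 13.4 CPM in MF_SS and 0.456 CPM in MF-DC, which has the shallowest of these cells, at a median of 4921 UMIs. The spread between animals is not known for any of these shares.

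The 13 MF_SS cells were deep, at a median of 25853 UMIs, and differed among themselves. Summed over them, Fabp5 stood at 1490 CPM against 27.3 CPM in the other MF_SS cells, Ctsd at 3906 against 518 CPM, Syngr1 at 255 against 5.34 CPM and Spp1 at 2331 against 35.5 CPM. Apoe stood at 25201 against 20784 CPM, and Clec4d, at 51.7 against 11.1 CPM, was found in 9 of the 13. Single cells ranged from 1.73 to 69.8 per 10000 UMIs for Fabp5 and from 6.32 to 103 for Ctsd, so a few cells carry much of these sums. H2-Aa stood at 6338 against 8387 CPM and Cd74 at 17371 against 25243 CPM. Of these cells, 10 met the C1q level. The part of doublets in these 13 cells was not tested.

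**Figure D5:**
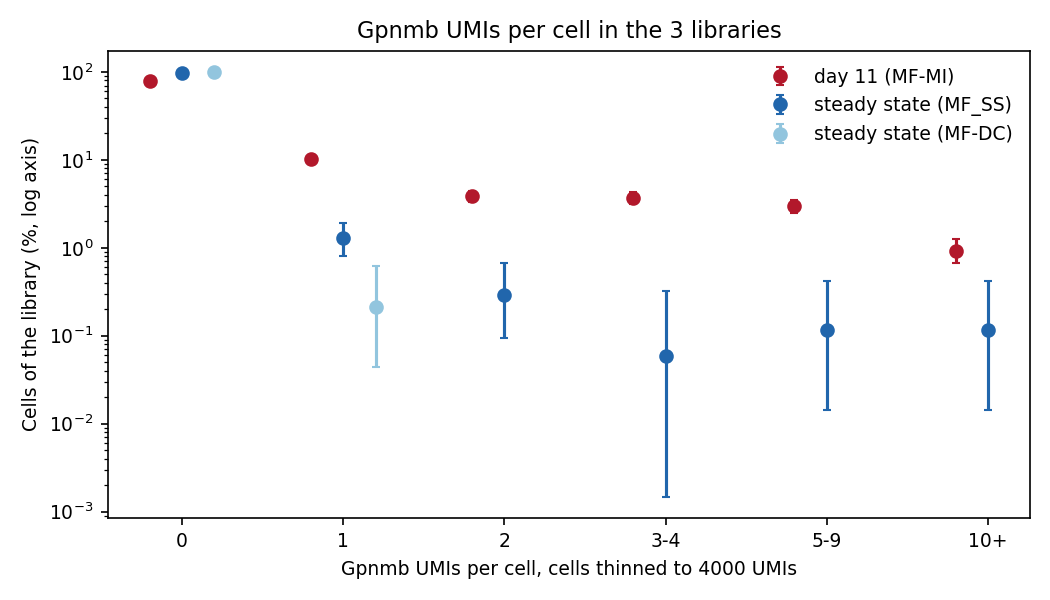
Share of cells (percent, log axis, exact 95% intervals) by Gpnmb UMIs per cell in each library, every cell thinned to 4000 UMIs and whatever its Arg1. At day 11, 3.72% of cells held 3 to 4 Gpnmb UMIs, and no point is drawn where MF-DC had no cell.

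The tdTomato label did not separate the sets at this depth, and EYFP was lower in the Gpnmb cells. In the Gpnmb cells tdTomato, the Cre-dependent label, gave 10 UMIs (1.54 CPM) against 61 UMIs (1.68 CPM) in the comparison cells, a ratio of 0.912 (0.417 to 1.79). In MF_SS macrophages it gave 309 UMIs (13.4 CPM), and in the 59 low-C1q cells none. A difference within that interval was not detectable at this depth. EYFP, read from the Cx3cr1 locus, stood at 22.7 against 37.8 CPM, a ratio of 0.602 (0.504 to 0.713), and at 9.11 CPM in the low-C1q cells. Cx3cr1 itself stood at 183 against 241 CPM. EYFP was found in 7.32% of thinned Gpnmb cells and 14.0% of thinned comparison cells. In thinned low-C1q cells EYFP was found in 5.56% and Cx3cr1 in 16.7%, and the source of their EYFP was not tested.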

How the data were processed

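Cells of 3 libraries were counted by droplet sequencing. The authors deposited UMI counts per gene and barcode, raw whole numbers, made with Cell Ranger and STAR on mm10 per the submitters' processing notes. The sources used here give no versions and no rule for calling cells. The day 11 library held 4697 barcodes and 45177529 UMIs (median 8224 per barcode), MF_SS 1806 and 23711707 (10737.5), and MF-DC 1780 and 14388327 (7164). The filter of 500 genes and 10% mitochondrial UMIs removed 24, 39 and 13 barcodes. Reporter entries stayed out of the totals behind CPM.

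The cells, the markers and all lists were chosen with earlier results of these data known. UMIs were summed over cells and divided by the total to give CPM, and a gene was measured with at least 20 CPM in either set. Named genes were the 15 highest and 15 lowest ratios among genes with at least 50 CPM in either set that also differed 1.5-fold in the same direction at equal depth. Rule genes and mitochondrial, ribosomal, haemoglobin, immunoglobulin, sex-linked, reporter and unnamed entries were left out, and members of the 24 lists and 15 marker sets may be named besides. Gpnmb, Arg1 and the C1q genes were left out of counts. Ratios have exact 95% intervals and shares Clopper-Pearson intervals, for counting error only, and UMIs of 1 cell are not independent draws. Low-C1q cells had under 20 C1q per 10000 UMIs and at least 3 DC UMIs. Doublets were scored with Scrublet (scanpy 1.11.5), and none was removed. Gene positions come from GENCODE vM21. Ratios and intervals were tested on simulated data. The simulation drew independent counts per gene and set, without cells, so it does not test the intervals where UMIs cluster in few cells. Alternatives changed the thresholds, the depth, the comparison cells, the weighting and the filter on low values.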

Additional observations from a re-analysis of the deposited data

How the results depend on the processing

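No paired analysis was possible because each group has 1 library. The share of Gpnmb cells, 11.9% as reported, was 15.1% with at least 2 Gpnmb UMIs, 8.67% with at least 5, 13.8% whatever Arg1 and 7.25% after thinning every cell to 4000 UMIs. The genes at least 2-fold higher, 65 as reported, were 27 with a minimum of 50 CPM and 938 with no minimum, and those 2-fold lower, 103 as reported, were 57, 1028 and, after thinning, 236. Counts without a minimum rest on genes with few UMIs. The tdTomato ratio was 0 with every cell thinned before the rule, where the 312 cells that then qualified had no UMI. It was 0.649 to 0.972 under the other alternatives. The log2 ratio of Saa3 turned to 0.0868 whatever Arg1. Over 11 alternatives, 27 of the 30 named genes stayed at least 2-fold apart in the reported direction under each, and the exceptions were Saa3 and Fn1 whatever Arg1 and Plac8 with at least 2 Gpnmb UMIs (log2 ratio -0.98). Leaving out a replicate was not possible. The main limits are 1 library per group, a threshold set on counts that favours deep cells, free RNA, doublets left in, and no protein or lipid measure.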

Other observations

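The genes of a microglia-type list, which also holds the chemokine receptor gene Cxcr4, were divided in the Gpnmb cells. Olfml3 stood at 195 CPM against 103 CPM in the other day 11 macrophages and 35.1 CPM in steady-state macrophages, and the chemokine receptor gene Cxcr4 at 129 CPM against 62.0 and 19.8 CPM. Cxcr4 was found in 41.5% of thinned Gpnmb cells and 19.8% of thinned comparison cells. Tmem119 stood at 46.8 against 78.3 CPM and P2ry12 at 31.6 against 46.1 CPM. Of 10 such genes measured, 1 (Cxcr4) was at least 2-fold higher and none was 2-fold lower, against 1.27% and 2.02% of all genes tested. The median log2 ratio was -0.02.

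Ndrg1, a gene known from the response to low oxygen, stood at 38.8 against 13.7 CPM and was found in 31.6% of the Gpnmb cells before thinning and 10.3% of the comparison cells. Adam8, a metalloprotease gene, stood at 53.9 against 18.9 CPM. Aldoa, a glycolytic enzyme gene, stood at 600.2 against 401 CPM, while Ldha stood at 267 against 315 CPM and Hk2 at 35.6 against 42.2 CPM.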
